A study of Mus musculus with 11 samples.

Results

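The genes described here are 10 transcriptional targets and feedback genes of canonical WNT/β-catenin signaling, *Axin2*, *Nkd1*, *Nkd2*, *Lef1*, *Tcf7*, *Apcdd1*, *Bambi*, *Sp5*, *Ccnd1* and *Myc*. They were taken by name and matched to their Ensembl identifiers, which gave 10 of the 38561 genes in the files, and all 10 had enough counts to be tested. In this pathway a WNT ligand binds Frizzled and LRP5/6 receptors, β-catenin escapes degradation, enters the nucleus and activates transcription with the DNA-binding factors of the TCF/LEF family. Several of the genes switched on in this way encode inhibitors that act back on the pathway, so their RNA is widely used as a readout of signal strength. R-spondins such as RSPO2 raise the amount of receptor at the cell surface by restraining the ubiquitin ligases ZNRF3 and RNF43, and in the embryonic face *Wnt9b* is expressed in the ectoderm and *Rspo2* in the mesenchyme beneath it.

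RNA came from facial process explants of mixed-strain mouse embryos at E10.5, which held the mandibular and maxillary parts of the branchial arch and the nasal processes. The libraries carry 4 genotype labels: wild type (wt, n = 2), Wnt9bKO (n = 3), Rspo2KO (n = 3) and DKO (n = 3), the last lacking both genes. By the study's methods the mutants came from *Rspo2* null and *Wnt9b* mutant lines, in which every cell of the embryo carries the mutation. The question put to these samples was how the loss of *Wnt9b*, of *Rspo2* and of both changed gene expression in the face. The labels do not say whether replicates were separate embryos or pools, so p-values measure the spread between these samples, which may be technical.

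The transcripts of the targeted genes were examined first. In CPM, counts scaled to the size of the library, *Rspo2* stood at 14.81 and 15.99 in wt and at 6.58, 4.79 and 4.73 CPM in the Rspo2KO libraries 1 to 3. The Wnt9bKO libraries 1 to 3 held 22.8, 2.86 and 18.1 CPM of *Rspo2*, and the DKO libraries 1 to 3 held 4.17, 3.67 and 15.5 CPM. The Wnt9bKO and DKO labels so held 1 library each whose *Rspo2* level went against its label: Wnt9bKO 2, with less *Rspo2* than any other library, and DKO 3, with as much as wt. Over the genes tested, unlikeness within labels was measured as chi-square per gene between the counts of 2 libraries. By this measure Wnt9bKO 1 stood apart from Wnt9bKO 2 (36.9) and Wnt9bKO 3 (35.7), which were more alike (10.5). DKO 3 stood apart from DKO 1 (28.9) and DKO 2 (25), which were alike (5.5). All libraries were kept under their labels, and results that rest on Wnt9bKO 2 and DKO 3 are also given without this pair. *Wnt9b* was not lower under the labels that name it: it stood at 10.8 and 13.4 CPM in wt, at 16.2 to 23.3 CPM in Wnt9bKO and at 18.2 to 20.2 CPM in DKO. Counts per whole gene do not show which exons were read.

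Total counts ran from 11136166 to 18017344 per library. The 6 Wnt9bKO and DKO libraries stood apart from the 5 wt and Rspo2KO libraries in small nuclear RNA and erythroid genes. Summed small nuclear RNA genes lay at 351.6 to 419.2 CPM in wt and Rspo2KO and at 70.1 to 82.7 CPM in Wnt9bKO and DKO, and summed erythroid markers at 3936 to 5751 CPM against 1738 to 2843 CPM. This library difference and the *Wnt9b* label cannot be told apart, whereas comparisons of Rspo2KO with wt and of DKO with Wnt9bKO stay within one kind of library. *Xist*, the RNA of the inactive X chromosome, was at 678.9 CPM or more in wt and DKO and below 2 CPM elsewhere, so sex also differed between labels. Sex and label therefore cannot be told apart in either single mutant against wt, nor in DKO against either single mutant. Among the label comparisons reported here, only DKO against wt is between labels alike in *Xist*. In bulk RNA of this kind, fewer cells of a type and less RNA per cell cannot be told apart.

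Promoter sequence from RefSeq (GRCm38.p6) was available for 6 of the 10 genes, *Axin2*, *Nkd1*, *Nkd2*, *Lef1*, *Tcf7* and *Sp5*, with 10 transcription start sites among them. The 250 bases before each start were searched on both strands for the TCF/LEF core word CTTTGAT and its variants, the word CTTTGAA, the word CTTTGTT and the word CTTTGTA, none of which overlapped another in these promoters. Of 32851 mouse promoters of this length 4874 (14.8%) held at least 1 such word, and 2 of the 10 searched here did. *Sp5*, a zinc finger transcription factor gene, held CTTTGTT on the minus strand and CTTTGAT on the plus strand. A downstream start of *Lef1* held CTTTGTA on the minus strand. Counted from the leftmost plus-strand base of each match, these words lay 222, 104 and 147 bases before the start. The windows of *Sp5* and *Axin2* are shown because they stand for the 2 cases. *Sp5* has a promoter with matches in a gene that was barely expressed. *Axin2* has a promoter without a match, in the gene whose level followed the order of *Rspo2* in every mutant label, though not in wt. Both are written 5′ to 3′ on the plus strand, with matched words in capitals (a minus-strand word appears as its reverse complement).
Sp5 (chr2:70474673-70474922): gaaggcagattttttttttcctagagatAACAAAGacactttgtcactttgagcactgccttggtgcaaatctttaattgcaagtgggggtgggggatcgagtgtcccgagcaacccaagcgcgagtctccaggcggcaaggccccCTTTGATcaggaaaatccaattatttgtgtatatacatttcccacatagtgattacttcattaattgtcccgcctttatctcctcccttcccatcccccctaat
Axin2 (chr11:108920099-108920348): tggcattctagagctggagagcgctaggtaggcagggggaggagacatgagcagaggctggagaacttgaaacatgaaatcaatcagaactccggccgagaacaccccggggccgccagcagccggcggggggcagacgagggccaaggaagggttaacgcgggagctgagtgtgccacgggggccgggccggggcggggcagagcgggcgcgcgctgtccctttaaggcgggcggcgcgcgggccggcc
A match is a description of these letters and not evidence of binding, and its absence from this window says nothing about sites elsewhere.

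Levels between genes were compared per length, as CPM per kilobase of exon. *Ccnd1*, which encodes cyclin D1, was the most abundant of the 10, with a median of 70.7 over the 11 libraries. *Axin2* (median 9.62) and *Bambi* (8.07) followed, then *Nkd1* (6.40) and *Nkd2* (6.33), *Myc* (3.35), *Lef1* (2.80), *Tcf7* (2.21), *Apcdd1* (2.01) and *Sp5* (0.335). Ranges over libraries overlapped between all neighbours in this order from *Axin2* to *Apcdd1*, whereas *Ccnd1* (58.9 to 82.2) and *Sp5* (0.228 to 0.399) lay outside the ranges of the others. The genes also differed in how far they varied. Between its lowest and highest library *Apcdd1* changed 4.84-fold, *Tcf7* 2.60-fold, *Lef1* 2.42-fold, *Myc* 2.13-fold, *Bambi* 2.07-fold and *Axin2* 1.93-fold, and *Ccnd1* 1.40-fold.

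Among the feedback inhibitors, *Axin2* (ENSMUSG00000000142, GRCm38 chr11:108920349-108950783, plus strand) encodes a scaffold of the β-catenin destruction complex. It was read at 54.97 and 52.99 CPM in wt, at 53.7, 40.9 and 38.9 CPM in Rspo2KO 1 to 3, at 75.1, 42.8 and 53.7 CPM in Wnt9bKO 1 to 3 and at 49.6, 48.0 and 68.3 CPM in DKO 1 to 3. The highest *Axin2* library of each mutant label was the one with the most *Rspo2*. The range of every mutant label reached the wt values, in Rspo2KO only through library 1 and in DKO only through DKO 3. The label means were 54.0 ± 1.40 CPM in wt (SD, n = 2), 44.5 ± 8.03 in Rspo2KO, 57.2 ± 16.4 in Wnt9bKO and 55.3 ± 11.3 in DKO (n = 3 each). On the log2 scale *Axin2* in DKO differed from wt by 0.03 (SE 0.21), and by -0.15 without DKO 3 (SE 0.22). *Apcdd1* (ENSMUSG00000071847, chromosome 18) encodes a membrane glycoprotein that binds WNT and LRP proteins and inhibits the pathway. Its levels were 32.9 and 45.4 CPM in wt, 27.7, 25.1 and 25.9 CPM in Rspo2KO, 52.2, 10.8 and 23.5 CPM in Wnt9bKO and 20.3, 21.6 and 29.2 CPM in DKO. The extremes of all 11 libraries, 52.2 and 10.8 CPM, were both labelled Wnt9bKO, and all Rspo2KO and DKO libraries lay below both wt libraries.

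*Nkd1* (ENSMUSG00000031661, chr8:88521354-88594884, plus strand) and *Nkd2* (ENSMUSG00000021567, chr13:73818534-73847631, minus strand) encode the Naked cuticle proteins, which bind Dishevelled and dampen the signal. *Nkd1* stood at 30.2 and 29.4 CPM in wt, 31.6, 29.2 and 31.1 CPM in Rspo2KO, 31.7, 19.0 and 19.8 CPM in Wnt9bKO and 22.5, 21.9 and 28.0 CPM in DKO. *Nkd2* stood at 30.8 and 42.2 CPM in wt, 32.2, 33.4 and 30.5 CPM in Rspo2KO, 34.3, 26.6 and 23.8 CPM in Wnt9bKO and 26.2, 29.1 and 26.6 CPM in DKO. For both genes the DKO libraries lay below all wt and all Rspo2KO libraries, and the library Wnt9bKO 1 stood above the other libraries of its label. *Bambi* (ENSMUSG00000024232, chromosome 18), a WNT target that encodes a pseudoreceptor of the TGF-β family, was read at 49.4 and 55.2 CPM in wt, 37.6, 43.4 and 43.3 CPM in Rspo2KO, 41.0, 31.1 and 36.8 CPM in Wnt9bKO and 26.7, 28.1 and 44.6 CPM in DKO. No mutant library of any label reached the lower wt library in *Bambi*.

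*Lef1* (ENSMUSG00000027985, chr3:131110471-131224356, plus strand) and *Tcf7* (ENSMUSG00000000782, chr11:52252371-52283014, minus strand) encode TCF/LEF factors and are themselves targets of the pathway. *Lef1* was read at 24.0 and 22.03 CPM in wt, 30.5, 17.7 and 17.7 CPM in Rspo2KO, 42.9, 24.6 and 40.4 CPM in Wnt9bKO and 23.7, 27.6 and 36.0 CPM in DKO. *Tcf7* was read at 5.80 and 3.62 CPM in wt, 7.48, 3.82 and 4.29 CPM in Rspo2KO, 6.01, 6.49 and 8.27 CPM in Wnt9bKO and 3.29, 4.23 and 8.55 CPM in DKO. Every Wnt9bKO library exceeded both wt libraries in both factors, and in the other mutant labels the ranges included or crossed those of wt.

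*Sp5* (ENSMUSG00000075304, chr2:70474923-70477729, plus strand) had only 9 to 14 counts per library, between 0.479 and 0.839 CPM, so that differences of the size seen in the other genes were not detectable at this depth. *Ccnd1* (ENSMUSG00000070348, chr7:144929931-144939925, minus strand), the cyclin that drives cells from G1 towards S phase, ranged from 277.5 CPM in DKO 3 to 387.1 CPM in DKO 2, and the libraries of the other labels fell between them. *Myc* (ENSMUSG00000022346, chr15:61985391-61990374, plus strand), a growth-promoting transcription factor, stood at 8.48 and 8.69 CPM in wt, 16.5, 9.10 and 10.8 CPM in Rspo2KO, 7.77, 12.5 and 11.7 CPM in Wnt9bKO and 8.39, 8.90 and 9.46 CPM in DKO. All 3 Rspo2KO libraries lay above wt in *Myc*, with library 1 far above the other libraries of its label.

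**Figure D1:**
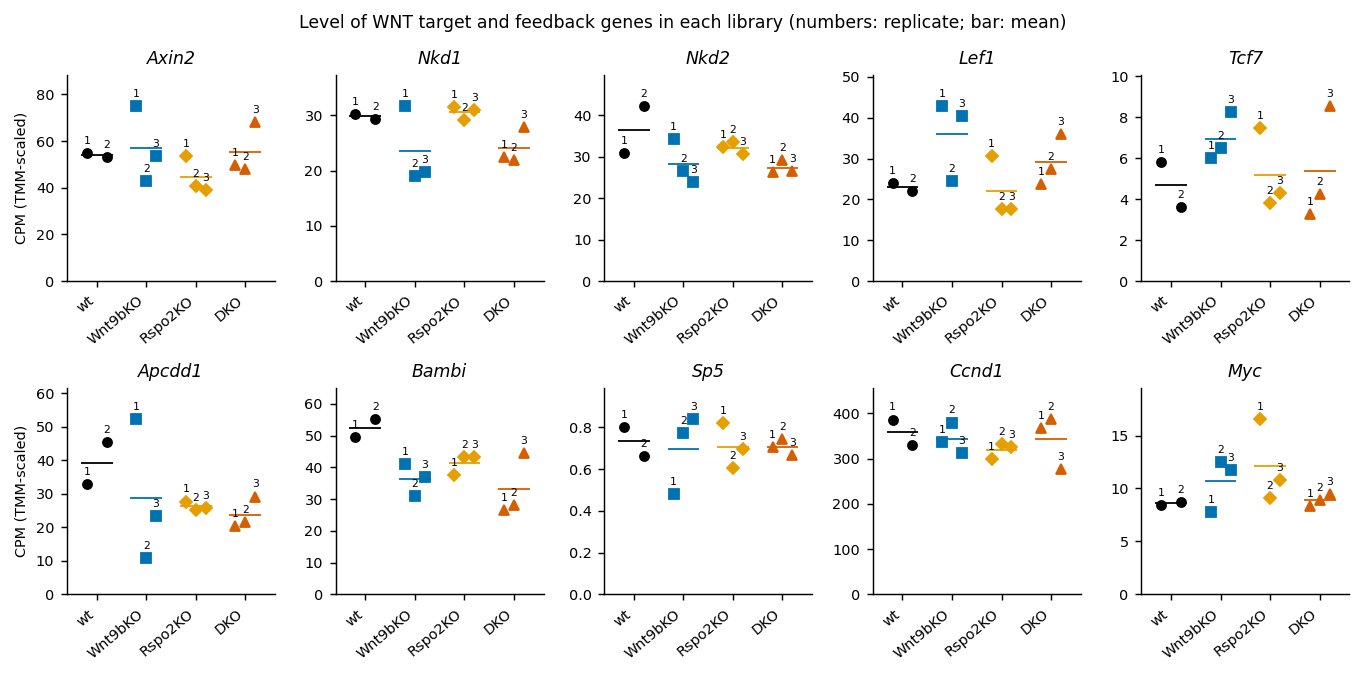
Level of each of the 10 genes in CPM (vertical axes, linear, from 0) in the 11 libraries, by genotype label; numbers give the replicate and bars the mean of the label. *Bambi* lies below wt in every mutant library, *Apcdd1* spreads from 10.8 to 52.2 CPM within Wnt9bKO, and *Ccnd1* runs from 277.5 to 387.1 CPM within DKO.

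Compared with wt, 1 of the 10 genes, *Bambi*, was lower under the labels Wnt9bKO and DKO, while the others did not pass the test. Both comparisons also cross the library difference described above, which cannot be told apart from these labels. Wnt9bKO against wt differs in *Xist* as well. *Bambi* fell by 0.53 on the log2 scale in Wnt9bKO (SE 0.19, adjusted p = 0.0412, edgeR quasi-likelihood test with Benjamini-Hochberg adjustment over 17317 genes) and by 0.66 in DKO (SE 0.19, adjusted p = 0.0169). In Rspo2KO its log2 difference from wt was -0.34 (95% interval -0.73 to 0.06, adjusted p = 0.497). These comparisons share the 2 wt libraries. Of all genes tested, 16.8% were called higher and 16% lower in Wnt9bKO, and 14.3% higher and 13.1% lower in DKO, so 1 lower gene and 0 higher genes of 10 is no larger a share than that of genes in general. At an unadjusted p below 0.05, 30% of the 10 genes and 43.3% of all genes differed in Wnt9bKO, and 20% against 39.1% in DKO. The median log2 difference of the 10 genes was -0.06 in Wnt9bKO and -0.05 in DKO. Without DKO 3, *Bambi* lay further below wt in DKO (-0.94, adjusted p = 0.000725 by edgeR). Without Wnt9bKO 2 and DKO 3 together it was -0.94 in DKO (adjusted p = 0.000313) and -0.43 in Wnt9bKO (adjusted p = 0.022). The *Bambi* call did not hold in Wnt9bKO without either wt library, Rspo2KO 2 or 3, or Wnt9bKO 2 or 3 (adjusted p 0.0533 to 0.217), nor in DKO without either wt library, DKO 1 or DKO 2 (0.0582 to 0.126).

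*Lef1*, *Nkd2*, *Nkd1* and *Apcdd1* had larger adjusted p values than *Bambi* and moved with single libraries. *Lef1* was 0.65 higher in Wnt9bKO than in wt on the log2 scale (SE 0.26, adjusted p = 0.0723 by edgeR), and without the library labelled Wnt9bKO 2 the difference was 0.88 with an adjusted p of 0.0162. *Nkd2* differed from wt by -0.37 in Wnt9bKO (adjusted p = 0.0824) and by -0.42 in DKO (adjusted p = 0.0593). These values depended on the wt libraries, being -0.58 and -0.63 without wt 1 (adjusted p = 0.0341 and 0.0307) and -0.13 and -0.17 without wt 2. *Apcdd1* differed by -0.44 in Wnt9bKO (SE 0.40, adjusted p = 0.422), and single libraries moved it both ways: it was -1.20 without Wnt9bKO 1 (adjusted p = 0.0042) and -0.03 without Wnt9bKO 2 (adjusted p = 0.954), -0.66 without wt 1 and -0.19 without wt 2. *Nkd1* differed by -0.34 in Wnt9bKO (adjusted p = 0.178). Without Wnt9bKO 1, *Nkd1* (-0.62, adjusted p = 0.00347) and *Nkd2* (-0.54, adjusted p = 0.0113) passed as well. In DKO *Apcdd1* differed by -0.73 (SE 0.40, adjusted p = 0.194), with all 3 libraries below wt. It passed without Wnt9bKO 1 (-0.73, adjusted p = 0.0303), as *Nkd2* did (adjusted p = 0.0236), with only the wt and DKO libraries in the fit (-0.74, adjusted p = 0.00756) and without Wnt9bKO 2 and DKO 3 together (-0.91, adjusted p = 0.0257), and was -0.48 without wt 2 (adjusted p = 0.581).

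Between Rspo2KO and wt none of the 10 genes differed beyond the threshold. The median log2 difference between Rspo2KO and wt was -0.12 over the 10 genes and 0.00 over all genes, 0 of 10 reached an unadjusted p below 0.05 by edgeR or DESeq2 (by edgeR 11.9% of all genes did), and the smallest adjusted p was 0.449, for *Myc* (log2 difference 0.49, SE 0.25). For *Axin2* the difference was -0.28 with a 95% interval of -0.73 to 0.17. Few genes of any kind were called, 0.0289% higher and 0.00577% lower. *Rspo2* itself was not called, at -1.53 (SE 0.64, adjusted p = 0.358 by edgeR), so the lack of a call says little about smaller differences. The comparison of DKO with Wnt9bKO, which asks for the effect of *Rspo2* where *Wnt9b* is lost, gave 0 of 10 genes at an adjusted or an unadjusted p below 0.05 by edgeR and by DESeq2, against 0.0635% of all genes called higher, 0.0577% called lower and 5.63% at the unadjusted threshold. The differences were -0.05 for *Axin2* (95% interval -0.45 to 0.35), -0.31 for *Lef1* (-0.79 to 0.18) and -0.29 for *Apcdd1* (-1.07 to 0.49). Both labels in this comparison contain a library whose *Rspo2* level goes against its label, and *Rspo2* itself was not called (-0.91, SE 0.56, adjusted p = 0.959 by edgeR). Without that pair the differences were larger, -0.40 for *Axin2* (SE 0.17), -0.70 for *Lef1* (SE 0.22), -0.86 for *Apcdd1* (SE 0.27), -0.92 for *Tcf7* (SE 0.32) and -0.51 for *Bambi* (SE 0.13), each at an unadjusted p below 0.05 and none past the adjusted threshold (adjusted p 0.304 to 0.831). Leaving out Wnt9bKO 1 alone turned *Axin2* to 0.20 and *Apcdd1* to 0.47.

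DKO compared with Rspo2KO asks for the effect of *Wnt9b* where *Rspo2* is lost. These labels also differ in library kind and in *Xist*, and DKO 3 held as much *Rspo2* as wt. The comparison also gave 0 of 10 genes at an adjusted or an unadjusted p below 0.05 by edgeR and by DESeq2. Of all genes, 9.17% were called higher, 9.07% were called lower and 31.4% passed the unadjusted threshold. The largest differences were -0.44 for *Myc* and 0.41 for *Lef1*, followed by -0.34 for *Nkd1*, and the smallest adjusted p was 0.177. *Myc* was at -0.16 without Rspo2KO 1, and *Lef1* at 0.71 without Rspo2KO 1 (adjusted p = 0.0365) and 0.23 without DKO 3, while *Nkd1* passed without Wnt9bKO 1 (-0.34, adjusted p = 0.036). *Bambi* moved from -0.32 to as low as -0.59 when 1 library was left out, and passed without the libraries labelled Wnt9bKO 2 and DKO 3. The median difference was -0.07 over the 10 genes. Whether both losses together did more or less than the sum of each was tested as an interaction, the log2 difference of DKO from Wnt9bKO less that of Rspo2KO from wt. *Xist* was high in wt and DKO and low in both single mutants, so this interaction and sex cannot be told apart. None of the 10 genes passed by edgeR or DESeq2, against 0.0289% of all genes with a positive and 0.0346% with a negative interaction, and *Myc* alone reached an unadjusted p below 0.05, as did 9.44% of all genes (interaction -0.75 on the log2 scale, SE 0.33, adjusted p = 0.5). The interval for *Axin2* ran from -0.37 to 0.83 and that for *Bambi* from -0.33 to 0.74, so departures from additivity of these sizes lie within the intervals. Without the pair that goes against its labels, the interaction turned to -0.11 for *Axin2* (SE 0.24), -0.16 for *Bambi* (SE 0.17) and -0.26 for *Apcdd1* (SE 0.36, from 0.30), and was -0.62 for *Lef1* (SE 0.30), -1.07 for *Tcf7* (SE 0.44) and -0.65 for *Myc* (SE 0.36), again with none past the adjusted threshold.

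Counted by overlap, *Lef1* and *Tcf7* had all Wnt9bKO libraries above wt and *Bambi* all below, where 28.3% and 28% of all genes tested did so. In Rspo2KO *Myc* lay above wt and *Apcdd1* and *Bambi* below (17.2% and 15.7% of all genes). In DKO *Nkd1*, *Nkd2*, *Apcdd1* and *Bambi*, 4 of the 10, lay below wt and 0 above, against 28.6% and 29.5% of all genes. Between DKO and Wnt9bKO every one of the 10 genes overlapped (5.92% of all genes lay wholly above and 5.32% below), and between DKO and Rspo2KO *Nkd1* and *Nkd2* lay below (18.3% of all genes) and 0 above (18.2%).

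**Figure D2:**
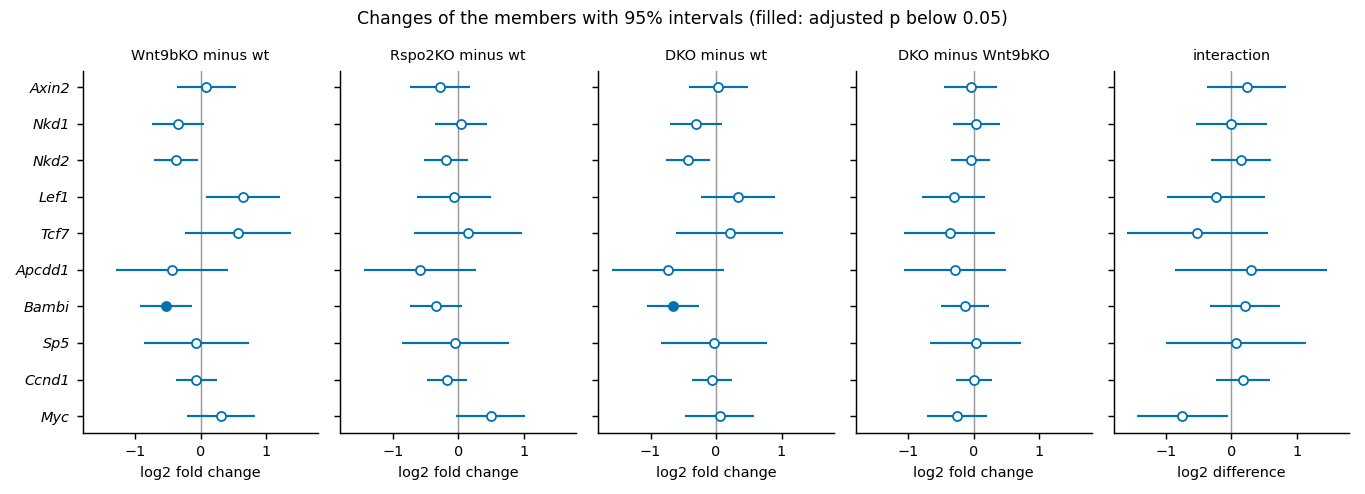
Log2 differences of the 10 genes in 4 label comparisons and the interaction (horizontal axes), with 95% intervals as lines; filled points have an adjusted p below 0.05. Only *Bambi* is filled, at -0.53 in Wnt9bKO against wt and -0.66 in DKO against wt.

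The levels were next set against the *Rspo2* level of the same library. Within genotype labels, 5 of the 10 genes tended to be higher where *Rspo2* was higher, namely *Apcdd1*, *Axin2*, *Lef1*, *Bambi* and *Nkd1*, and *Ccnd1* tended to be lower, all at an unadjusted p below 0.05 and none past the adjusted threshold. The measure is a slope, the log2 change of a gene for each doubling of *Rspo2*, fitted over all 11 libraries with the label as a term. No correlation over all libraries is given because the *Rspo2* levels fall into separate clusters. *Apcdd1* had a slope of 0.52 (SE 0.10, adjusted p = 0.0821 by edgeR), *Axin2* of 0.24 (SE 0.05, adjusted p = 0.119) and *Lef1* of 0.29 (SE 0.07, adjusted p = 0.186). *Bambi* followed with 0.19 (SE 0.05, adjusted p = 0.299), *Nkd1* with 0.17 (SE 0.06, adjusted p = 0.401) and *Ccnd1* with -0.13 (SE 0.05, adjusted p = 0.428).

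The other 4 genes had slopes of 0.24 (*Tcf7*, SE 0.12), 0.03 (*Nkd2*, SE 0.06), -0.09 (*Sp5*, SE 0.14) and -0.05 (*Myc*, SE 0.09). By edgeR 0 of 10 slopes passed the adjusted threshold, which 0.0982% of all genes passed upward and 0.0231% downward, while DESeq2 called 3, *Apcdd1* (adjusted p = 5.66e-05), *Axin2* (0.00969) and *Lef1* (0.0195), with slopes of 0.52, 0.24 and 0.29. At the unadjusted threshold 5 of 10 slopes were upward and 1 downward, beside 4.91% and 3.6% of all genes. The median slope was 0.18 over the 10 genes and 0.00 over all genes. Since these genes were examined with earlier results of the same libraries known, the counts describe the 10 genes and are not an independent test of them.

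The library values show what these slopes rest on. In Wnt9bKO, *Axin2* went from 42.8 to 53.7 to 75.1 CPM as *Rspo2* went from 2.86 to 18.1 to 22.8 CPM, in Rspo2KO from 38.9 to 40.9 to 53.7 CPM across *Rspo2* levels of 4.73, 4.79 and 6.58 CPM, and in DKO from 48.0 to 49.6 to 68.3 CPM across 3.67, 4.17 and 15.5 CPM. *Axin2* therefore followed the order of *Rspo2* in all 3 mutant labels, and ran opposite to it in wt, where the libraries differed little. The lower libraries of Rspo2KO (4.73 and 4.79 CPM) and DKO (3.67 and 4.17 CPM) also differed little. The order in these labels rests mainly on the library with the most *Rspo2*. *Lef1* and *Nkd1* were likewise highest in the library with the most *Rspo2* in all 3 mutant labels, and *Apcdd1* in all 4 labels. *Ccnd1* ran opposite to *Rspo2* in wt and in DKO, where it stood at 387.1, 368.2 and 277.5 CPM in order of rising *Rspo2*. Restricted to the 6 Wnt9bKO and DKO libraries, which are of one kind in the library features above, the slopes were 0.23 for *Axin2*, 0.26 for *Lef1*, 0.53 for *Apcdd1*, 0.18 for *Nkd1*, 0.20 for *Bambi* and -0.13 for *Ccnd1*, with none past the adjusted threshold.

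Most of the spread of *Rspo2* within labels came from the library labelled Wnt9bKO 2 and that labelled DKO 3. Without both, *Rspo2* varied within a label by no more than from 18.1 to 22.8 CPM in Wnt9bKO and from 4.73 to 6.58 CPM in Rspo2KO, and the slopes became 0.99 for *Axin2* (SE 0.22, adjusted p = 0.146), 1.04 for *Lef1* (SE 0.36, adjusted p = 0.192), 1.17 for *Apcdd1* (SE 0.52, adjusted p = 0.286) and 0.62 for *Nkd1* (SE 0.34, adjusted p = 0.378) by edgeR. *Bambi* turned to -0.15 (SE 0.24, adjusted p = 0.803). The steeper slopes of *Axin2*, *Lef1*, *Apcdd1* and *Nkd1* rest on this narrow range of *Rspo2*. It was read from 75 to 88 counts in Rspo2KO and from 71 and 59 counts in DKO 1 and 2. Counts per whole gene do not show whether such reads encode RSPO2 protein. Single libraries also moved values: *Apcdd1* was at 0.32 without Wnt9bKO 2 and 0.35 without Wnt9bKO 1, and *Nkd1* at 0.09 without Wnt9bKO 1. *Bambi* was at 0.11 without DKO 3 and 0.33 without Wnt9bKO 2, *Ccnd1* at -0.08 and -0.21, and *Tcf7* at 0.07 and 0.61, in the same order. *Axin2* stayed between 0.20 and 0.31 and *Lef1* between 0.26 and 0.32 when any 1 library was left out. *Apcdd1* passed the adjusted threshold without Wnt9bKO 3 (adjusted p = 0.0336) or DKO 3 (0.0209) and *Lef1* without Rspo2KO 1 (0.045).

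**Figure D3:**
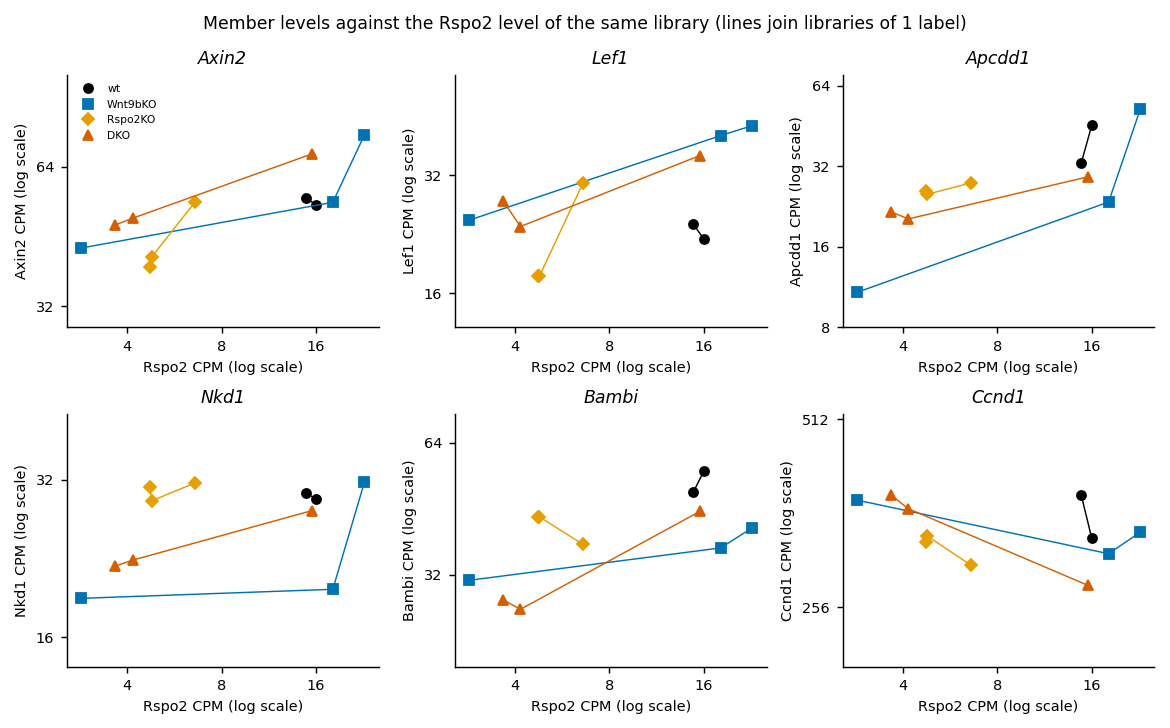
Level of 6 of the genes (vertical axes) against the *Rspo2* level of the same library (horizontal axes), both in CPM on log scales; lines join libraries of 1 label. *Axin2* climbs with *Rspo2* within Wnt9bKO, Rspo2KO and DKO, *Apcdd1* spans 10.8 to 52.2 CPM within Wnt9bKO, and *Ccnd1* drops to 277.5 CPM in DKO 3.

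Cell type markers moved with *Rspo2* as well. The 8 mesenchyme markers, none of them at 0 in any library, summed to 1130 and 1063 CPM in wt, 791.7 to 866.5 CPM in Rspo2KO, 1346, 709.4 and 1017 CPM in Wnt9bKO 1 to 3 and 936, 869.4 and 973.5 CPM in DKO 1 to 3. In Wnt9bKO and DKO the library with the most *Rspo2* and *Axin2* also had the most mesenchyme signal, but in Rspo2KO it did not (829.8 CPM in Rspo2KO 1 against 866.5 CPM in Rspo2KO 3). Of the markers, 6 of 8 had a slope above 0 at an unadjusted p below 0.05 with a median of 0.21, close to the 0.18 of the WNT genes. Among these markers *Msx1* and *Twist1* are also in the broader list of WNT targets followed below. The 8 forebrain and eye markers ran the other way, with a median slope of -0.20 and sums of 91.3, 176.3 and 127.4 CPM in Wnt9bKO 1 to 3. Surface epithelium markers had a median slope of -0.02 and sums of 219.3 to 267.0 CPM over all libraries. Upward slopes were not limited to mesenchyme. Medians were 0.146 for neuron and 0.15 for erythroid markers, with 3 of 8 and 3 of 6 upward at an unadjusted p below 0.05. *Rspo2* is itself made by mesenchyme, and the part of tissue makeup in the slopes was not tested.

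The rest of the pathway was followed in 3 lists. Among 13 cofactors and partners of TCF/LEF, 6 rose and 0 fell in Wnt9bKO against wt, 4 rose and 0 fell in DKO against wt, and 1 rose in DKO against Rspo2KO. Over all genes, 16.8% rose and 16% fell in Wnt9bKO against wt, and 14.3% rose and 13.1% fell in DKO against wt. In DKO against Rspo2KO 9.17% rose and 9.07% fell. *Tcf7l1*, a TCF factor that mostly represses, went from 5.53 and 7.0 CPM in wt to 19.8, 17.7 and 21.3 CPM in Wnt9bKO (log2 change 1.63, SE 0.26, adjusted p = 0.000365) and to 16.8, 13.6 and 20.1 CPM in DKO (1.41, SE 0.26, adjusted p = 0.00123). *Tcf7l2*, another TCF factor, rose by 1.09 in Wnt9bKO (adjusted p = 0.000525) and 0.83 in DKO (adjusted p = 0.00386), and *Bcl9*, a coactivator that binds β-catenin, rose by 1.01 in Wnt9bKO (adjusted p = 0.00276). *Ctnnbip1*, an inhibitor of the β-catenin and TCF interaction, rose by 0.45 in DKO against wt (adjusted p = 0.0105) and by 0.60 against Rspo2KO (adjusted p = 0.00112). The other calls against wt, named after their values were seen, were *Ctnnbip1*, *Bcl9l* and *Tle3* in Wnt9bKO (0.45, 0.92 and 0.41) and *Bcl9* in DKO (0.82). *Tcf7l1* also read 16.7, 8.79 and 10.2 CPM in Rspo2KO, above both wt libraries. Beside these changes the forebrain and eye markers summed to 60.3 to 70.7 CPM in wt against 91.3 to 176.3 CPM in Wnt9bKO and 96.7 to 119.9 CPM in DKO, and their part in these changes was not tested.

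Among 15 tested feedback genes and receptors outside the 10, 3 fell and 0 rose in Wnt9bKO against wt, and 3 fell and 1 rose in DKO against wt. The shares of all genes that fell were 16% and 13.1%, so these counts were near the background. *Dkk1*, *Notum* and *Znrf3* passed in both comparisons, which share the wt libraries. *Dkk1*, a secreted antagonist of LRP5/6, stood at 11.2 and 9.35 CPM in wt, 7.66, 2.86 and 6.35 CPM in Wnt9bKO and 3.17, 3.67 and 5.15 CPM in DKO, and its log2 change was -0.86 (adjusted p = 0.0399) and -1.36 (adjusted p = 0.00514). *Notum*, an enzyme that removes the lipid from WNT ligands, fell by 1.47 (adjusted p = 0.0141) and by 1.41 (adjusted p = 0.0203), from 3.30 and 3.68 CPM in wt to 0.596 to 2.23 CPM in Wnt9bKO. *Znrf3*, the ubiquitin ligase that RSPO2 restrains, fell by 0.44 (adjusted p = 0.0392) and by 0.70 (adjusted p = 0.00432), and by 0.55 in DKO against Rspo2KO (adjusted p = 0.0142). The feedback gene that rose in DKO, named after its values were seen, was *Trabd2b*, a protease acting on WNT ligands (log2 change 0.96, adjusted p = 0.0417). In Rspo2KO *Dkk1* read 6.28, 5.34 and 5.24 CPM and *Notum* 1.42, 1.09 and 1.96 CPM, all below wt, with adjusted p values of 0.289 and 0.274.

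Among 33 tested targets of a broader list, 4 rose and 2 fell in Wnt9bKO against wt, 3 rose and 2 fell in DKO against wt, and 3 rose and 0 fell in DKO against Rspo2KO. Against wt these are smaller shares than those of all genes (16.8% higher and 16% lower in Wnt9bKO, 14.3% and 13.1% in DKO), and against Rspo2KO 9.17% of all genes rose. *Mycn*, a proto-oncogene of the *Myc* family, fell by 0.55 in Wnt9bKO (adjusted p = 0.00217) and by 0.56 in DKO (adjusted p = 0.00241), from 135.5 and 126.2 CPM in wt to 81.0 to 101.1 CPM in both labels. *Ccnd2*, a D-type cyclin like *Ccnd1*, rose by 0.78 in Wnt9bKO (adjusted p = 0.0106), *Met*, the receptor of hepatocyte growth factor, by 0.66 in DKO (adjusted p = 0.0084), and *Efnb1* and *Sp8* by 0.59 and 0.57 in DKO against Rspo2KO (adjusted p = 0.00535 and 0.0315). Named after their values were seen, *Met* and *Sox9* also rose in Wnt9bKO (0.53 and 0.69), *Ccnd2* rose in DKO (0.81), and *Birc5*, an inhibitor of apoptosis needed in mitosis, fell by 0.44 in Wnt9bKO and by 0.42 in DKO. Rspo2KO differed from wt with the same signs, by -0.38 for *Mycn*, -0.30 for *Birc5*, 0.64 for *Ccnd2*, 0.66 for *Sox9* and 0.31 for *Met*. None of these passed (adjusted p 0.226 to 0.481 by edgeR). The wt libraries themselves held 224.9 and 367 CPM of *Ccnd2*. In Rspo2KO against wt, in DKO against Wnt9bKO and in the interaction 0 genes of all 3 lists were called by edgeR. At an unadjusted p below 0.05, Rspo2KO had 4 partners higher, 1 feedback gene higher and 3 lower, and 2 targets higher and 4 lower, where 11.9% of all genes differed in either direction.

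On the *Rspo2* slope 3 of the 33 targets passed the adjusted threshold, all upward. They were *Msx1* (slope 0.52, SE 0.07, adjusted p = 0.0109) and *Msx2* (0.42, SE 0.07, adjusted p = 0.0333), homeobox genes of facial mesenchyme, and the T-box gene *Tbx3* (0.27, SE 0.04, adjusted p = 0.0287). *Msx1* read 137.2 and 124.9 CPM in wt, 67.6 to 71.99 CPM in Rspo2KO, 136.0, 35.1 and 90.5 CPM in Wnt9bKO and 52.0, 63.3 and 95.3 CPM in DKO, the same order of libraries within Wnt9bKO as *Axin2* and *Apcdd1*. *Msx1* is also 1 of the 8 mesenchyme markers, as is *Twist1* of the same list. None of the partners and none of the feedback genes passed, although 6 of the 15 feedback genes, *Dkk1* (0.41, adjusted p = 0.059), *Lgr5*, *Sostdc1*, *Kremen2*, *Notum* and *Wif1*, had upward slopes at an unadjusted p below 0.05. Median slopes were 0.17 for the feedback genes, 0.08 for the partners and 0.06 for the broader targets, beside 0.00 for all genes.

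**Figure D4:**
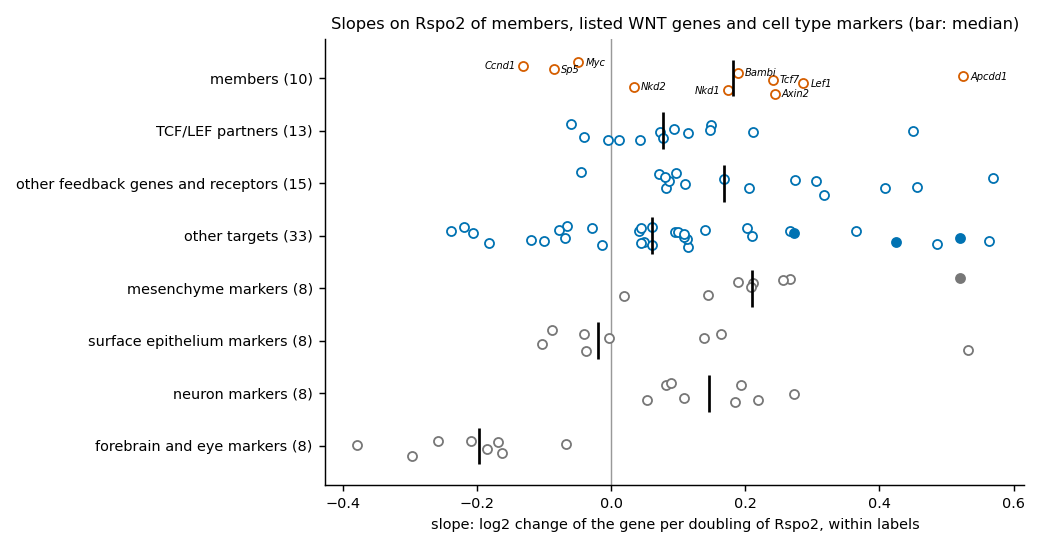
Slope on *Rspo2* (horizontal axis, log2 change per doubling of *Rspo2* within labels) of the 10 genes, 3 lists of WNT genes and 4 lists of cell type markers; each point is a gene, filled where the adjusted p is below 0.05, and bars are medians. The 10 genes run from -0.13 (*Ccnd1*) to 0.52 (*Apcdd1*) around a median of 0.18, mesenchyme markers have a median of 0.21 and forebrain and eye markers one of -0.20.

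*Axin2* was used to ask which genes of the whole table varied most like a WNT target over the 11 libraries, by Pearson's r of log2 CPM among 14849 genes with a mean of at least 1 CPM. These values describe libraries that share labels, tissue makeup and library kind, and carry no test. The 5 highest were *Smad9* (0.907), *Osr2* (0.905), *Gm13055* (0.903), *Twist1* (0.897) and *Btbd11* (0.896). *Twist1* is both a mesenchyme marker and a gene of the broader list of WNT targets. It stood at 171.9 CPM in Wnt9bKO 1 and 75.3 CPM in Wnt9bKO 2. *Osr2*, a transcription factor gene of palate mesenchyme, read 3.30 and 0.476 CPM in the same libraries. Of the other 9 genes described here, *Lef1* was the most like *Axin2* (r = 0.826, place 17), near *Rspo2* itself (0.793, place 31), then *Apcdd1* (0.620) and *Tcf7* (0.494). *Nkd1* (0.265), *Bambi* (0.226) and *Nkd2* (0.0656) were hardly alike, *Myc* (-0.275) and *Ccnd1* (-0.350) ran the other way, and *Sp5* was below 1 CPM and not ranked.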

How the data were processed

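Total RNA from 11 facial process samples was sequenced by the authors as single-end reads, trimmed with Cutadapt, aligned to GRCm38 with STAR and counted per Ensembl gene with HTSeq-Count. The deposited values are raw counts, and tool versions, strand setting and annotation release are not given in the sources used here. Without the strand setting, reads of overlapping antisense genes cannot be told apart. Labels gave the genotype and replicate number of each library. Of 38561 genes, 36723 matched GENCODE M21 (GRCm38) by identifier for names, positions and exon length.

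Counts were scaled by TMM factors (0.915 to 1.096) and tested with edgeR 4.0.16 in R 4.3.3 (quasi-likelihood F-test, two-sided, filterByExpr, 1 mean per label over all 11 libraries), which kept 17317 genes. A call is a Benjamini-Hochberg adjusted p below 0.05 over all genes tested. The paper's methods state DESeq2, run here as version 1.42.0 as an alternative. The slope used log2 CPM of *Rspo2* with a prior count of 2 as a covariate beside the label, and left *Rspo2* out of the genes tested. Log2 fold changes, errors and intervals come from these fits, and simulated counts with known changes were used to test the scripts. Depth limited *Sp5*, and intervals cover the spread between libraries and not differences in dissection.

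The 10 genes and the lists were chosen with earlier results of these data known. Named genes were the 10, *Rspo2*, *Wnt9b*, up to 3 called genes with the smallest p per list and comparison, and the 5 genes most like *Axin2*. One item that this rule selects is not reported here. *Dkk4*, *Fgf20*, *T*, *Cdx1* and *Cdx4* of the lists had too few counts to be tested. Genes given at an unadjusted p, and *Nkd1*, *Lef1* and *Apcdd1* without single libraries, were named after their values were seen. Where a wt library was left out, the remaining one was assumed to vary like the other labels. No libraries looked deposited in duplicate.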

Additional observations from a re-analysis of the deposited data

How the results depend on the processing

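Of 70 log2 differences and slopes of the 10 genes, 1603 alternative values were computed. Of these 1545 stayed on the same side of the threshold, 45 were called in the alternative alone, 13 lost their call and 0 called values turned sign, while 88 values that were called in neither fit changed sign. Leaving out TMM factors moved each label mean in CPM by less than 1 SD, at most by 5.38%.

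The count of called genes among the 10 moved as follows. In Wnt9bKO against wt it was 1, and 2 with DESeq2 and with no filter on low counts (*Bambi*, *Lef1*), 2 with an offset for GC content and length (*Bambi*, *Nkd2*), 0 when tested against a 1.5-fold change, 2 without the libraries labelled Wnt9bKO 2 and DKO 3 (an alternative chosen after seeing the data), and 0 to 4 when single libraries were left out. It stayed at 1 with another gene called at an unadjusted p with a 1.5-fold minimum (*Lef1*, not *Bambi*), without Wnt9bKO 2 (*Lef1*) and without wt 1 (*Nkd2*). In DKO against wt it was 1, and 2 with DESeq2 (*Bambi*, *Nkd2*), 3 with no filter (*Apcdd1*, *Bambi*, *Nkd2*), 2 with the GC and length offset with or without a replicate block, 0 against 1.5-fold, 3 with only the labels compared (*Apcdd1*, *Bambi*, *Nkd2*), 2 without Wnt9bKO 2 and DKO 3 (*Apcdd1*, *Bambi*), and 0 to 3 without single libraries (*Nkd2*, not *Bambi*, without wt 1). In DKO against Rspo2KO it was 0, and 1 with no filter (*Lef1*), 1 without Wnt9bKO 2 and DKO 3 (*Bambi*), and 0 to 1 without single libraries. For the interaction it was 0, and 1 at an unadjusted p with a 1.5-fold minimum (*Myc*). For the *Rspo2* slope it was 0, and 3 with DESeq2 and 3 with no filter (*Apcdd1*, *Axin2*, *Lef1*), 1 with the GC and length offset (*Axin2*), 1 with *Rspo2* on a linear scale (*Apcdd1*), 6 at an unadjusted p, and 0 to 1 without single libraries. In Rspo2KO against wt and DKO against Wnt9bKO it was 0 in every alternative. The cause of these differences was not tested.

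Counts over all genes moved by more than 1.5 times in several alternatives. They ranged from 834 to 6094 around 5674 in Wnt9bKO against wt, from 2 to 811 around 6 in Rspo2KO against wt, from 555 to 5720 around 4760 in DKO against wt, from 6 to 508 around 21 in DKO against Wnt9bKO, from 308 to 3991 around 3159 in DKO against Rspo2KO, from 5 to 1013 around 11 for the interaction and from 0 to 1474 around 21 for the slope. DESeq2 gave 177, 86, 32 and 101 in Rspo2KO against wt, DKO against Wnt9bKO, the interaction and the slope.

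Labels share replicate numbers, but the deviations of same-numbered libraries correlated between -0.105 and 0.236 over 15 pairs, with 3 above 0.1, so the numbers were not taken as pairs. With a replicate block, 1 of the 10 genes was called in Wnt9bKO and in DKO against wt and 0 elsewhere, and 11 genes in all were called on the slope.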

Other observations

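The remaining cell type lists describe what the explants held besides facial mesenchyme. Surface epithelium markers summed to 219.3 to 267.0 CPM and endothelium markers to 141.8 to 187.4 CPM over the 11 libraries, and neural crest and glia markers to 53.3 to 71.5 CPM. Neuron markers, which mark the cranial ganglia and brain, summed to 365.4 CPM in Wnt9bKO 2 and to 795.0 CPM in Rspo2KO 1. In DKO against wt 3 of 8 neuron markers were called higher by edgeR, and 5 of 8 forebrain and eye markers, where 14.3% of all genes were called higher. Heart and striated muscle markers summed to 65.9 CPM in wt 1 and to 3.69 to 11.5 CPM in the other 10 libraries.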
